A study of Mus musculus with 53 samples.

Results

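The comparison is of whole mouse cornea at postnatal day 7 (P7) with whole cornea at postnatal day 3 (P3), both taken before the eyelids open. Members were chosen by title: the 3 Affymetrix Gene ST arrays of cornea at P7 and the 3 of cornea at P3, which are 6 of the 27 arrays of that type and of the 53 samples in the series. All 19938 genes named on the array entered the test. Both groups came from wildtype CB6 mice with no treatment, and total RNA of the whole cornea was hybridised, so that epithelium, stroma, endothelium and anything adhering to the dissected tissue were measured together. The other Gene ST arrays hold cornea at embryonic days 14.5, 15.5 and 17.5 (E14.5, E15.5 and E17.5), at P14 and at P28, and lung and trachea at E18.5, with 3 arrays in each group. The labels do not say whether the replicates came from separate animals or litters, so the spread between them may be technical. At P7 this cannot hold for all 3 arrays, since sex-linked genes, given below, differed on replicate 2. The p-values rest on each gene's spread within groups, pooled over all 27 arrays and not only over the P7 and P3 arrays.

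The cornea is the transparent front of the eye. A surface epithelium lies on a collagen-rich stroma made by keratocytes, and a single-layered endothelium behind it pumps water out to keep the stroma clear. Corneal epithelium is known for very high amounts of water-soluble enzymes such as aldehyde dehydrogenase ALDH3A1 and transketolase, which are called corneal crystallins by analogy with the lens. Type II transmembrane serine proteases are anchored in the membrane of many surface epithelia, where serpins and Kazal- or WAP-type inhibitors restrain serine proteases. Photoreceptors, retinal neurons, pigment epithelium and lens lie deeper in the eye and are not part of the cornea, although sensory nerves and, at its margin, melanocytes and vessels are.

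A level below is a quantile-normalised log2 of intensity plus 16. A gene was called when limma's moderated test, fitted over all 27 arrays, gave a Benjamini-Hochberg adjusted p under 0.05 and the change was at least 2-fold. By this rule 284 of 19938 genes (1.42%) were called, of which 173 were higher (0.868%) and 111 were lower (0.557%) at P7 than at P3. The arrays of the 2 ages did not overlap in 171 of the 173 and in all 111 of the 111, against 14.5% of all genes with every P7 array above every P3 array and 12.4% with every P7 array below. The calls were made on these same arrays, so most of this separation follows from the rule and is no separate support. The median change over all genes was 0.017 on the log2 scale. Where a called gene had a second probe set, it moved the same way in 15 of 16 genes.

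2 arrays stood apart. P7 replicate 2 was the only one of the 6 with high Y-linked signal: Kdm5d had levels of 4.58, 10.20 and 5.45 on the P7 arrays (replicates 1, 2 and 3, as throughout), against 5.60, 5.03 and 5.67 on the P3 arrays. Xist, which is X-linked, was at 12.5, 6.6 and 12.4 at P7, against 12.6, 12.7 and 12.4 at P3, lowest on P7 replicate 2. The same array had the highest mean level of the corneal epithelium list, 10.70 against 10.29 and 10.37 on the other P7 arrays, and the lowest of the corneal stroma list, 10.12 against 10.87 and 10.73. On the P3 arrays the epithelium list averaged 10.09, 9.88 and 9.79, and the stroma list 10.86, 10.75 and 10.55. P3 replicate 3 had the highest levels of the photoreceptor, neuron and lens lists. Without P7 replicate 2, 131 genes were higher and 90 lower. Without P3 replicate 3, 159 were higher and 77 lower. With both left out, a choice made after the data were seen, 109 were higher and 49 lower, and no called gene changed sign. A change of sign was hardly possible in called genes whose ages do not overlap. Correlations between arrays were 0.9699 to 0.9792 within P7, 0.9646 to 0.9775 within P3 and 0.9429 to 0.9606 between the ages.

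One family of membrane serine proteases rose. Of 7 measured Tmprss11 genes, which encode the HAT and DESC subfamily of type II transmembrane serine proteases, 5 rose: Tmprss11a, Tmprss11b, Tmprss11d, Tmprss11e and Tmprss11g. They neighbour each other on chromosome 5 in the order Tmprss11c, d, a, g, f, b and e.

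Tmprss11d, the airway trypsin-like protease HAT, had levels of 11.43, 11.66 and 10.32 at P7, against 5.93, 5.97 and 7.06 at P3. All 3 P7 arrays were above all 3 P3 arrays by more than the spread within either age, and the gene was 28.2-fold higher at P7 (log2 change 4.82 ± 0.36 SE, adjusted p = 2.66e-08), the largest rise among all named genes. Tmprss11e, also known as DESC1, had levels of 8.77, 9.73 and 8.67 at P7, against 5.74, 6.05 and 5.97 at P3. It was 8.81-fold higher (log2 change 3.14 ± 0.23 SE, adjusted p = 2.66e-08). Its level at P3 was close to its means of 5.73, 5.93 and 6.12 at E14.5, E15.5 and E17.5.

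Tmprss11a had levels of 11.01, 12.22 and 10.67 at P7, against 9.40, 6.62 and 8.15 at P3. The P3 arrays were widely spread, with replicate 2 lowest, and the log2 change of 3.24 had an SE of 0.70 (adjusted p = 0.00694). Without P3 replicate 2 the adjusted p was 0.0509, which missed the threshold. Tmprss11g had levels of 11.67, 11.92 and 11.41 at P7, against 9.84, 9.18 and 9.55 at P3 (log2 change 2.15 ± 0.29 SE, adjusted p = 0.000124). Tmprss11b had levels of 10.15, 10.82 and 10.11 at P7, against 9.49, 8.25 and 8.63 at P3 (log2 change 1.57 ± 0.36 SE, adjusted p = 0.0103), and lost its call without P7 replicate 2 or without P3 replicate 2.

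The other family members did not pass. Tmprss11f changed by 0.42 ± 0.28 on the log2 scale (SE, adjusted p = 0.403) and Tmprss11c by -0.32 ± 0.15 (SE, adjusted p = 0.206). Tmprss11f lies between Tmprss11g and Tmprss11b, which both passed.

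**Figure D1:**
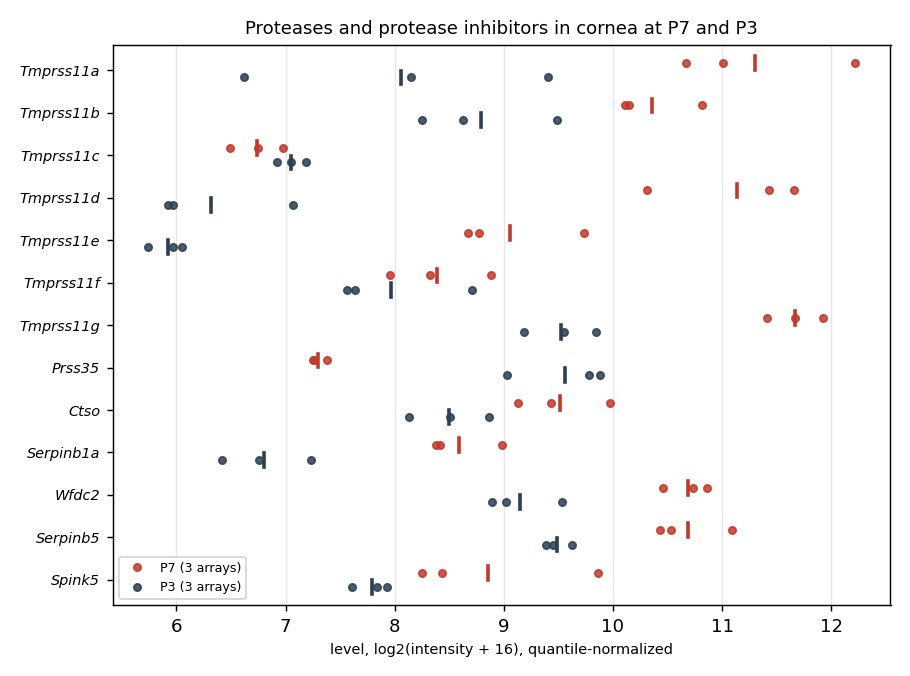
Levels of the 7 Tmprss11 genes, 2 further called proteases and 4 called protease inhibitors. The x axis is the quantile-normalised log2(intensity + 16), each point is 1 array (P7 in red, P3 in dark blue, 3 arrays each) and each short bar is the mean of an age. The P7 points of Tmprss11a, b, d, e and g lie right of all their P3 points, those of Tmprss11c and f do not separate in that direction, and Prss35 is the only gene shown with all P7 points to the left among those called.

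Across all protease lists, 6 of 140 measured members rose (4.29%) and 1 fell. The shares over all genes were 0.868% and 0.557%. Beside the Tmprss11 genes, only Ctso, a lysosomal cysteine cathepsin, rose, with levels of 9.44, 9.97 and 9.13 at P7, against 8.86, 8.13 and 8.51 at P3 (log2 change 1.01 ± 0.23 SE, adjusted p = 0.00859). None of 12 kallikreins and none of 60 metalloproteases was called by limma, and at no fold limit 1 kallikrein and 1 metalloprotease passed, both lower (with no fold limit 4.63% of all genes were higher and 2.57% lower). At an unadjusted p under 0.05 there were 2 kallikreins and 11 metalloproteases, where 22.2% of all genes passed. The kallikrein was Klk12, with a log2 change of -0.65 ± 0.14 (SE, adjusted p = 0.00501). The median change was 0.245 over 32 membrane and secreted serine proteases, -0.172 over the kallikreins and -0.05 over the metalloproteases, on the log2 scale. The count of proteases higher was 4 without P7 replicate 2, 3 without P3 replicate 2, 6 without P3 replicate 3 and 3 with both arrays that stood apart left out.

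Prss35, a secreted protein with a serine protease domain whose catalytic serine is replaced, fell. Its levels were 7.38, 7.25 and 7.26 at P7, against 9.88, 9.03 and 9.78 at P3 (log2 change -2.26 ± 0.51 SE, adjusted p = 0.00899). It fell again, by 2.82 on the log2 scale, at P28 against P14 (adjusted p = 0.00053).

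4 of 46 protease inhibitors rose (8.7%, against 0.868% of all genes) and none fell, with a median log2 change of 0.17 over the list. Serpinb1a, an intracellular serpin that inhibits neutrophil elastase, had levels of 8.38, 8.98 and 8.42 at P7, against 7.23, 6.42 and 6.75 at P3 (adjusted p = 0.000668). Wfdc2, a small secreted protein of the WAP family, had levels of 10.46, 10.86 and 10.74 at P7, against 8.89, 9.02 and 9.53 at P3 (adjusted p = 0.00472). Serpinb5, known as maspin, was 2.3-fold higher (adjusted p = 0.0128). Spink5, which encodes LEKTI, an inhibitor of epidermal kallikreins, rose by 1.06 on the log2 scale (adjusted p = 0.0456), with P7 replicate 2 at 9.87 and the other P7 arrays at 8.25 and 8.44. Without that array Serpinb5 lost its call and the Spink5 change was 0.55 (adjusted p = 0.289). The Spink5 call also ended without P3 replicate 1, 2 or 3 (adjusted p = 0.0812, 0.14 and 0.0792).

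Enzyme genes other than proteases rose in larger number. Of 363 measured members of 8 enzyme lists, 24 rose (6.61%, against 0.868% of all genes) and 1 fell, and the median log2 change was 0.179. The mean level of all enzyme lists together was 8.75, 8.78 and 8.71 on the P7 arrays, against 8.56, 8.49 and 8.48 on the P3 arrays, so the ages did not overlap. Without P7 replicate 2, 16 members were called higher, without P3 replicate 3, 24, without P3 replicate 2, 17, and with both arrays that stood apart left out, 15. The corneal epithelium list moved the same way: 36 of its 41 measured members changed above 0, with a median log2 change of 0.377, and 4 were called higher. Among these 4, Aldh3a1 and Tkt are also members of the enzyme lists, so the sets are not separate. The part of a larger share of epithelial RNA in the enzyme rises was not tested. In whole tissue, more cells of a type and more RNA per cell cannot be told apart, and likewise fewer cells and less RNA per cell.

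Aldh3a1, which removes aldehydes made by light and lipid peroxidation and is a leading corneal crystallin, had levels of 13.58, 13.82 and 13.29 at P7, against 9.75, 9.74 and 9.76 at P3. The 2 ages were far apart and the P3 arrays nearly identical. The gene was 14.1-fold higher at P7 (log2 change 3.81 ± 0.17 SE, adjusted p = 2.9e-12), the smallest adjusted p among the genes named here. Its mean levels at E15.5, E17.5 and P3 were 10.12, 9.68 and 9.75, those at P7, P14 and P28 were 13.56, 13.63 and 14.70, and the P28 level was 1.07 above P14 (adjusted p = 0.000157). On all 3 P28 arrays it had the same rank of brightness, which quantile normalisation sets to 1 shared value.

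Of 49 aldehyde, alcohol and retinoid dehydrogenases 6 rose (12.2%, against 0.868% of all genes) and none fell. Adh7, a class IV alcohol dehydrogenase of epithelia that oxidises retinol, had levels of 12.17, 12.61 and 12.09 at P7, against 9.40, 10.23 and 10.05 at P3 (log2 change 2.39 ± 0.34 SE, adjusted p = 0.000197). Aldh1a7, a cytosolic aldehyde dehydrogenase of rodents, had levels of 9.58, 10.34 and 9.54 at P7, against 7.50, 8.11 and 8.34 at P3 (adjusted p = 0.000178). Adh1, the class I enzyme, stood at 13.34, 13.65 and 13.23 at P7 and was already at 12.27, 12.32 and 12.25 at P3 (adjusted p = 0.0292). The remaining risers were Adh6a, at 1.37, and Dhrs7, a short-chain dehydrogenase, at 1.29 on the log2 scale. Adh6a lost its call without P7 replicate 2 or P3 replicate 2, Dhrs7 without P3 replicate 2, and Adh1 when any array except P7 replicate 3 was left out.

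**Figure D2:**
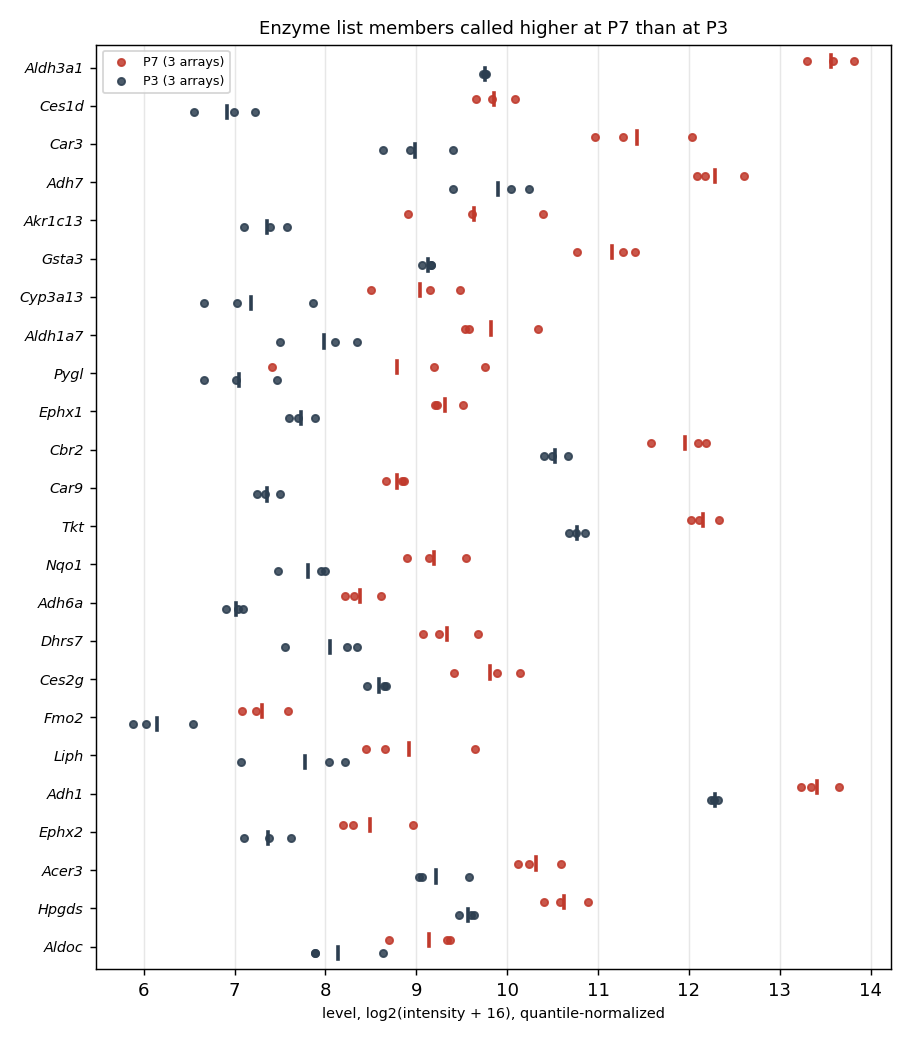
Levels of the 24 enzyme list members called higher at P7, ordered by size of change. The x axis is the quantile-normalised log2(intensity + 16), each point is 1 array (P7 in red, P3 in dark blue, 3 arrays each) and each short bar is the mean of an age. Aldh3a1 shows the widest gap, and Pygl is the only gene shown in which a P7 array, at 7.41, lies among the P3 arrays.

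Genes of phase I and phase II metabolism also rose. In the list of cytochromes P450 and conjugating enzymes 6 of 65 were higher (9.23%, against 0.868% of all genes). In the list of glutathione, quinone and oxidative defence enzymes 4 of 58 were higher (6.9%), with none lower in either list. Ces1d, a carboxylesterase, had levels of 9.66, 10.08 and 9.83 at P7, against 6.55, 6.99 and 7.22 at P3 (log2 change 2.94 ± 0.31 SE, adjusted p = 5.97e-06). Gsta3, an alpha-class glutathione transferase, had levels of 10.77, 11.41 and 11.28 at P7, against 9.06, 9.16 and 9.16 at P3 (log2 change 2.02 ± 0.29 SE, adjusted p = 0.000209). In both genes every P7 array was above every P3 array by a wide margin. Akr1c13, an aldo-keto reductase, rose by 2.28 (adjusted p = 2.5e-05), and Cyp3a13 by 1.86 (adjusted p = 0.000529). Nqo1, which reduces quinones without making radicals, had levels of 9.14, 9.54 and 8.90 at P7, against 7.47, 7.96 and 7.99 at P3 (adjusted p = 0.000419). The epoxide hydrolases Ephx1 and Ephx2 rose by 1.59 and 1.12, the carbonyl reductase Cbr2 by 1.43, the carboxylesterase Ces2g by 1.23 and the flavin monooxygenase Fmo2 by 1.16 on the log2 scale. Several of these genes (Ces1d, Akr1c13, Gsta3, Adh6a) have close paralogues in the mouse, and cross-hybridisation between them was not tested.

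In central metabolism 3 of 31 list members rose (9.68%, against 0.868% of all genes). Tkt, the transketolase of the pentose phosphate pathway and a corneal crystallin, had levels of 12.03, 12.33 and 12.11 at P7, against 10.68, 10.86 and 10.76 at P3 (log2 change 1.39 ± 0.16 SE, adjusted p = 2.2e-05). The gap between the ages was several times the spread within each. Pygl, the liver-type glycogen phosphorylase, had levels of 9.19, 9.75 and 7.41 at P7, against 7.47, 6.67 and 7.02 at P3, and P7 replicate 3 overlapped the P3 arrays (adjusted p = 0.0135). Aldoc, an aldolase, lay at the fold limit with a 2-fold change (adjusted p = 0.00589). Of 17 sterol synthesis enzymes none was called by limma, but 16 changed above 0 with a list median of 0.408. With no fold limit 3 passed, and 10 (58.8%, against 22.2% of all genes) had an unadjusted p under 0.05. Idi1, which makes dimethylallyl diphosphate, had the list's largest change at 0.83 ± 0.33 (SE, adjusted p = 0.13).

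Among lipid enzymes 3 of 78 rose (3.85%, against 0.868% of all genes). They were Liph, a phosphatidic acid-selective lipase, Acer3, an alkaline ceramidase, and Hpgds, the haematopoietic prostaglandin D synthase, at 2.2-fold, 2.14-fold and 2.08-fold. All 3 lost their calls without P7 replicate 2, as did Ephx2, Fmo2, Pygl, Aldoc and, among the proteases, Ctso. Calls also ended without P3 replicate 2 for Liph, Ephx2, Pygl, Aldoc and Ctso, without P3 replicate 1 for Hpgds, Fmo2 and Aldoc, without P7 replicate 1 for Pygl and Aldoc, and without P7 replicate 3 or P3 replicate 3 for Fmo2. The carbonic anhydrases, which interconvert carbon dioxide and bicarbonate, moved both ways. Car3 had levels of 11.28, 12.03 and 10.96 at P7, against 8.64, 9.40 and 8.93 at P3 (adjusted p = 0.0125, and 0.0683 without P7 replicate 2). Car9, the membrane enzyme induced by low oxygen in many cells, had levels of 8.66, 8.86 and 8.84 at P7, against 7.24, 7.34 and 7.50 at P3 (adjusted p = 1.26e-07). Car8, a catalytically inactive member prominent in Purkinje neurons, fell by 1.16 on the log2 scale (adjusted p = 0.0159), and its adjusted p was 0.0503, 0.058 and 0.0523 without P7 replicate 2, P7 replicate 3 and P3 replicate 3. None of 51 enzymes that modify collagen or glycosaminoglycans was called by limma, with 1 higher and 2 lower at no fold limit. Of these enzymes 9 (17.6%) had an unadjusted p under 0.05, against 22.2% of all genes, and the median log2 change was 0.016. Plod1, a collagen lysyl hydroxylase, had the largest change in that list, 0.92 ± 0.34 (SE, adjusted p = 0.101). It was 9.48 on P7 replicate 2, against 11.02 and 11.10 on the other P7 arrays.

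Of 41 corneal epithelium genes 4 rose (9.76%, against 0.868% of all genes): Krt12 and Epcam beside Aldh3a1 and Tkt. Krt12, the keratin specific to corneal epithelium, had levels of 13.49, 13.72 and 13.18 at P7, against 11.49, 11.77 and 11.64 at P3 (3.56-fold, adjusted p = 2.5e-05). Epcam, an epithelial adhesion molecule, was 2.3-fold higher (adjusted p = 0.0184), and lost its call without either P7 replicate 2 or P3 replicate 3. Ehf, an epithelial Ets factor, changed by 0.66 ± 0.19 (SE, adjusted p = 0.0322), under the fold limit. Klf4, a zinc-finger factor of surface epithelia, changed by 0.92 ± 0.35 (SE, adjusted p = 0.113) and Pax6, the eye-field factor, by 0.11 ± 0.24 (SE, adjusted p = 0.846). Pax6 levels were 11.83, 12.09 and 11.88 at P7, against 11.84, 11.79 and 11.84 at P3. The keratins Krt5 and Krt14 and the factor Trp63, basal cell genes named here after their values were seen, changed by 0.51, 0.39 and 0.40 on the log2 scale and none was called.

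Of 47 genes of late epidermal differentiation, including the cornified envelope, 2 rose and 2 fell (4.26% each, against 0.868% and 0.557% of all genes). Ivl, involucrin, rose by 1.08 (adjusted p = 0.00758), and Spink5 is the other riser. Lce3c, a late cornified envelope gene, fell by 1.70 (adjusted p = 6.07e-05). Krtdap, a keratinocyte differentiation peptide, had levels of 9.34, 9.77 and 9.15 at P7, against 10.54, 11.04 and 11.04 at P3 (adjusted p = 0.00503). Ivl lost its call without P7 replicate 2 or P3 replicate 1.

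Endothelial genes rose in 2 of 18 measured members (11.1%, against 0.868% of all genes). Slc4a11, a borate and proton transporter of the corneal endothelium whose human mutations cause endothelial dystrophy, had levels of 9.46, 9.42 and 9.88 at P7, against 7.48, 7.93 and 7.64 at P3 (log2 change 1.90 ± 0.22 SE, adjusted p = 1.96e-05). Atp1b1, a subunit of the sodium pump, rose by 1.56 (adjusted p = 0.000775). Atp1b1 then fell by 1.36 at P28 against P14 (adjusted p = 0.0007).

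In the stroma list of 37 genes 1 rose (2.7%) and 2 fell (5.41%), against 0.868% and 0.557% of all genes. Angptl7, a secreted factor of the corneal stroma and trabecular meshwork, had levels of 10.90, 8.90 and 11.48 at P7, against 7.93, 8.35 and 7.91 at P3 (adjusted p = 0.0023). P7 replicate 2, the array with the lowest mean level of the stroma list, was the lowest of the P7 arrays and still above P3. Vcan, the matrix proteoglycan versican, fell by 1.49 (adjusted p = 0.0278) and Omd, osteomodulin, by 1.14 (adjusted p = 0.0238). Vcan lost its call without P7 replicate 2 or any 1 of the 3 P3 arrays, and Omd without P7 replicate 2, P7 replicate 3 or P3 replicate 1. In the fit on the 6 arrays of the 2 ages alone none of these 3 genes was called.

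Retinal, pigment and neural genes moved the other way. Of 197 measured members of 5 lists, 29 fell (14.7%, against 0.557% of all genes) and 3 rose (1.52%, against 0.868%), with a median log2 change of -0.259. In 89 of the 197 (45.2%) every P7 array was below every P3 array, against 12.4% of all genes. The summed intensity of these genes was 63190, 66230 and 67350 on the P7 arrays, against 93310, 98440 and 141000 on the P3 arrays, with P3 replicate 3 highest. Without P3 replicate 3, 18 were called lower, without P7 replicate 1, 16, and with both arrays that stood apart left out, 10. The 5 lists hold genes of the retina and also genes of nerves and melanocytes, which the cornea or its margin has. How much of the falls reflects tissue taken with the cornea was not tested.

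By list, 8 of 46 photoreceptor genes, 7 of 43 genes of other retinal cells, 7 of 36 pigment cell genes, 7 of 53 neuronal genes and 1 of 22 Schwann cell genes fell. These shares were 17.4%, 16.3%, 19.4%, 13.2% and 4.55%, against 0.557% of all genes. Rlbp1 is in both the pigment and the other retinal lists and is counted once in the 29. Without P7 replicate 1 the calls of Gngt2, Crx, Cngb3, Tyr, Thy1, Uchl1, Six6, Pmel, Gngt1, Prdm1, Pdc and Snap25 ended, and without P3 replicate 3 those of Slc24a5, Kif5c, Crx, Cngb3, Tyr, Uchl1, Six6, Gngt1, Prdm1 and Pdc. Calls also ended without P7 replicate 2 (Cngb3, Crx, Kif5c, Pdc, Thy1, Tyr and Uchl1), P7 replicate 3 (Cngb3, Crx, Kif5c, Pdc, Slc24a5, Thy1 and Tyr), P3 replicate 1 (Gngt2 and Thy1) and P3 replicate 2 (Cngb3, Gngt1, Gngt2, Kif5c, Pdc and Tyr). The lost calls of Opn1sw are given below. In the fit on the 6 arrays of the 2 ages alone, 3 photoreceptor, 7 other retinal, 7 pigment cell, 5 neuronal and 1 Schwann cell genes were lower. That fit called 95 of all 19938 genes lower.

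The lens list, with 26 genes, had no member called by limma in the fit on all 27 arrays. At an unadjusted p under 0.05 there were 7 (26.9%, against 22.2% of all genes). In the fit on the 6 arrays of the 2 ages alone 4 were called lower, beside 95 of all 19938 genes. Of the 26, 21 changed below 0, and the list median of -0.392 was lower than that of the photoreceptors (-0.266). Cryga, a gamma crystallin of lens fibres, had levels of 7.36, 7.33 and 6.98 at P7, against 10.10, 10.21 and 11.06 at P3, which do not overlap (adjusted p = 0.113). The summed intensity of the lens list was 8544, 8201 and 9403 at P7, against 13780, 13810 and 22840 at P3.

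Factors of the developing retina were among the genes that fell. Neurod4, a proneural factor of retinal interneurons, had levels of 6.20, 6.65 and 7.31 at P7, against 10.62, 11.58 and 12.51 at P3 (28.9-fold lower, log2 change -4.85 ± 0.77 SE, adjusted p = 0.000565). Otx2, a homeobox factor of photoreceptor, bipolar and pigment epithelial cells, had levels of 5.98, 7.48 and 7.10 at P7, against 10.27, 11.01 and 11.74 at P3 (log2 change -4.15 ± 0.73 SE, adjusted p = 0.00152). In both genes the ages were separated by more than 2 log2 units. Neurod1 fell by 3.61 (adjusted p = 0.00769). Prdm1, a factor of early photoreceptors that many other cells also use, had a log2 change of -2.41 (adjusted p = 0.0111), and Six6, a homeobox factor of the eye field, one of -2.20 (adjusted p = 0.0172). Thy1, a surface glycoprotein of ganglion cells that stromal cells can also express, had levels of 7.85, 8.02 and 7.67 at P7, against 11.49, 8.07 and 9.30 at P3. Its P3 replicate 1 was highest and P3 replicate 2 nearly met the P7 arrays (adjusted p = 0.0258). The log2 change of -1.77 was -0.84 without P3 replicate 1 (adjusted p = 0.11), and the call also ended without P7 replicate 1, 2 or 3.

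Among photoreceptor genes, Rorb, an orphan receptor needed for rod fate, fell by 3.79 (adjusted p = 0.00398). Pdc, phosducin, had levels of 8.05, 8.88 and 8.44 at P7, against 10.26, 11.07 and 11.92 at P3 (adjusted p = 0.0436), and lost its call without P7 replicates 1, 2 or 3 or P3 replicates 2 or 3. Gngt1, the rod transducin gamma subunit, had levels of 7.63, 8.91 and 8.64 at P7, against 9.80, 10.57 and 11.83 at P3 (adjusted p = 0.0225). Rbp3, the interphotoreceptor retinoid-binding protein, had levels of 6.59, 7.15 and 7.18 at P7, against 8.43, 8.57 and 10.22 at P3 (adjusted p = 0.00672). Crx, the cone-rod homeobox factor, had levels of 7.07, 7.12 and 7.10 at P7, against 7.55, 8.17 and 9.88 at P3 (adjusted p = 0.0323). In these 5 genes P3 replicate 3 was highest and P3 replicate 1 lowest of the P3 arrays. Cngb3 and Gngt2, parts of cone phototransduction, had log2 changes of -1.47 and -1.16. Opn1sw, short-wavelength cone opsin, which the naming rule left out and is given to complete the 8, fell by 1.01 (adjusted p = 0.034). Its call ended without P7 replicate 1, 2 or 3 or P3 replicate 2 or 3. Crx and Cngb3 lost their calls without P7 replicate 1, 2 or 3 or P3 replicate 3, and Cngb3 also without P3 replicate 2. Without P3 replicate 3 their log2 changes were -0.77 and -0.91, against -1.44 and -1.47 with all arrays.

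The 3 risers of these lists were Guca1a, Prom1 and Ednrb. Guca1a, a guanylate cyclase activator of photoreceptors, had levels of 9.14, 9.68 and 9.08 at P7, against 6.94, 7.78 and 8.66 at P3 (adjusted p = 0.00541), and was called higher again at P28 against P14 (adjusted p = 0.0021). Prom1, named to complete the count, encodes a protein of membrane protrusions in photoreceptors and many epithelia and rose by 1.02 (adjusted p = 0.00396). Ednrb, the endothelin B receptor of melanocyte precursors, endothelium and glia, was 2.29-fold higher (adjusted p = 0.0439), and lost its call in every fit that left out 1 array.

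**Figure D3:**
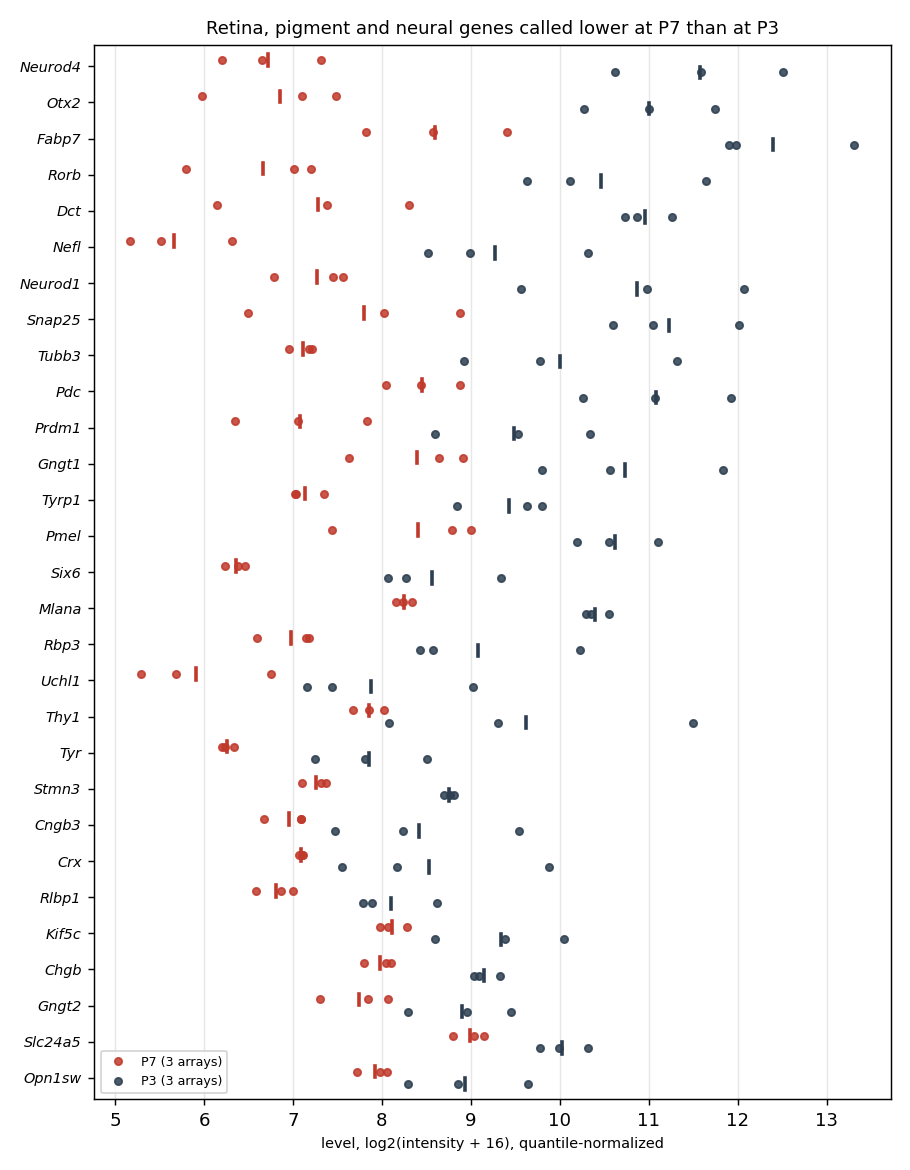
Levels of the 29 retina, pigment and neural list members called lower at P7, ordered by size of change. The x axis is the quantile-normalised log2(intensity + 16), each point is 1 array (P7 in red, P3 in dark blue, 3 arrays each) and each short bar is the mean of an age. No gene shows overlap between the ages, and in many of the photoreceptor and neuronal genes P3 replicate 3 is the rightmost point.

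Dct, dopachrome tautomerase, had levels of 6.15, 8.31 and 7.38 at P7, against 10.73, 10.87 and 11.26 at P3 (12.8-fold lower, adjusted p = 0.00273). Tyrp1, the related tyrosinase-like enzyme, had levels of 7.02, 7.35 and 7.03 at P7, against 8.84, 9.63 and 9.80 at P3 (adjusted p = 0.00277). P3 replicate 3 was again the highest array in both genes, close to replicate 2. Pmel, a fibril protein of melanosomes, Mlana, Tyr, the tyrosinase that starts melanin synthesis, and Slc24a5, a melanosomal exchanger, had log2 changes of -2.21, -2.16, -1.60 and -1.03. Rlbp1, the retinaldehyde-binding protein of pigment epithelium and Müller glia, fell by 1.29. Rpe65, the isomerohydrolase of the visual cycle in retinal pigment epithelium, was low at both ages, with levels of 5.98, 5.96 and 6.09 at P7, against 5.58, 6.08 and 6.06 at P3 (adjusted p = 0.877).

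Neuronal genes also fell. Nefl, the light neurofilament subunit, had levels of 6.31, 5.17 and 5.51 at P7, against 8.99, 8.51 and 10.32 at P3 (12.2-fold lower, adjusted p = 0.00522). Snap25, a synaptic vesicle fusion protein, had levels of 6.49, 8.87 and 8.02 at P7, against 10.60, 11.05 and 12.02 at P3 (adjusted p = 0.00828). Tubb3, neuronal tubulin, had levels of 7.21, 6.96 and 7.18 at P7, against 9.77, 8.92 and 11.31 at P3 (adjusted p = 0.0061). All 3 genes separated the ages, with P3 replicate 3 again highest. Uchl1, Stmn3, Kif5c and Chgb had log2 changes of -1.97, -1.49, -1.23 and -1.17. In the Schwann cell list Fabp7, a fatty acid-binding protein of glial and retinal progenitor cells, fell by 3.80 (adjusted p = 1.6e-06), with levels of 8.57, 9.41 and 7.82 at P7, against 11.90, 11.98 and 13.31 at P3.

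Further named genes fell outside these lists. Mak, a kinase of photoreceptor cilia, Sv2b, a synaptic vesicle protein, Atp1b2, a sodium pump subunit of glia and photoreceptors, Ptprz1, a glial receptor phosphatase, and Galnt13, a neural glycosyltransferase, had log2 changes of -2.33, -2.40, -2.54, -2.67 and -2.36. The Galnt13 change was -1.56 without P3 replicate 3 (adjusted p = 0.11), and its call also ended without P7 replicate 1 or 2. Dmd, the dystrophin gene expressed in muscle and retina, fell by 2.86, and its adjusted p was 0.0517 without P7 replicate 1. In the vessel list 4 of 31 genes fell (12.9%, against 0.557% of all genes), with a median of -0.485. Emcn, endomucin of venous and capillary endothelium, had levels of 5.81, 6.57 and 6.49 at P7, against 9.24, 9.26 and 9.42 at P3 (adjusted p = 0.00456). Acta2, smooth muscle actin, had levels of 8.61, 8.59 and 8.13 at P7, against 10.36, 11.13 and 10.24 at P3 (adjusted p = 0.00769). Prox1, a factor of lymphatic endothelium that lens and retina also use, and Myh11, smooth muscle myosin, had log2 changes of -1.63 and -1.05. Prox1 lost its call without P7 replicate 1, 2 or 3 or P3 replicate 3, and Myh11 without P3 replicate 2.

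None of 40 skeletal muscle genes, 10 erythroid genes, 39 immune genes or 33 genes of conjunctiva and ocular glands was called by limma, with 1 muscle and 3 immune genes lower and 1 conjunctival gene higher at no fold limit. At an unadjusted p under 0.05 there were 3, 1, 9 and 4 genes of these lists (7.5%, 10%, 23.1% and 12.1%), against 22.2% of all genes. In the fit on the 6 arrays of the 2 ages alone 1 conjunctiva and ocular gland gene was called lower, beside 95 of all 19938 genes. Acta1, skeletal actin, had levels of 7.80, 7.84 and 7.75 at P7, against 7.52, 7.89 and 8.49 at P3. Ptprc, the leukocyte antigen CD45, had levels of 7.61, 7.61 and 7.71 at P7, against 7.97, 7.62 and 7.78 at P3. Of 49 cell cycle genes none was called by limma, the median was -0.119 and 1 was lower with no fold limit. At an unadjusted p under 0.05, 5 of them passed (10.2%).

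**Figure D4:**
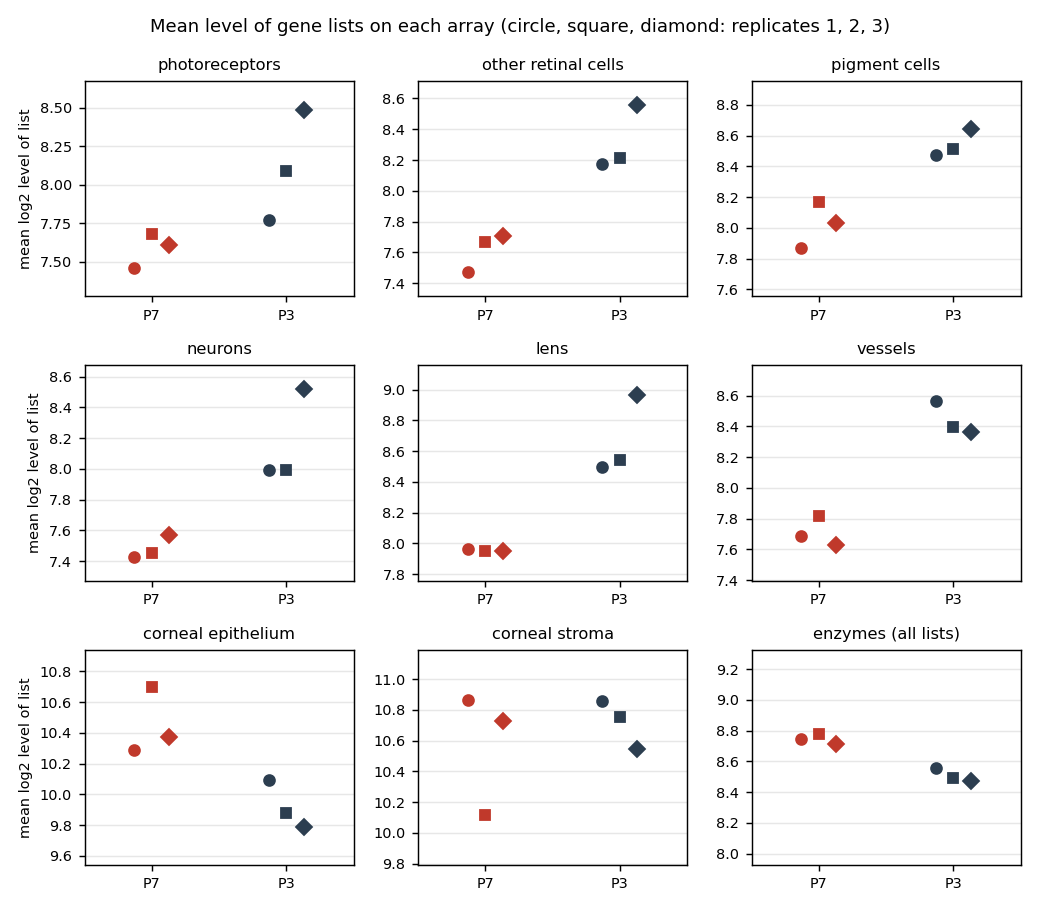
Mean log2(intensity + 16) of 9 gene lists on each array, with P7 arrays in red left of P3 arrays in dark blue; symbols mark replicates 1, 2 and 3 and every panel spans the same range of log2 units. Retina, pigment, neuron, lens and vessel lists lie lower on all P7 arrays, P3 replicate 3 is highest in the first 5 panels, and P7 replicate 2 is highest for epithelium and lowest for stroma.

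The falls differed in how they followed photoreceptor genes at the other ages. Over the 15 cornea arrays of the 5 other ages, each gene's deviation from its age mean was correlated with that of the photoreceptor list, which describes these arrays and shares their libraries. Of the 111 genes called lower, 16 (14.4%) had r of at least 0.7, against 1 of the 173 called higher (0.578%) and 391 of all 19938 genes (1.96%). Of the 16, 7 were among the 29 falls in the retina, pigment and neural lists (24.1%). The other 9 were among the 82 falls outside these lists (11%). Among the falls, r was 0.95 for Atp1b2, 0.94 for Rbp3, 0.89 for Mak and 0.88 for Crx, and 0.20 for Dct, 0.20 for Tyrp1 and 0.18 for Mlana. For a gene that is itself in the photoreceptor list, the list mean was taken without that gene. Pdc and Snap25 had r of 0.72 and 0.85.

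Promoters are shown for falls that carry a shared motif, and for Per3, a clock gene described below. The sequences are RefSeq promoters of GRCm38.p6, 300 bases each around the start, written 5′ to 3′ along the gene's strand, and capitals mark the motif searched on both strands: TAATCC (the Crx and Otx motif, read as GGATTA on the other strand), or TTATGNAA (the D-box) in Per3.
Rbp3, chr14:33953753-33954052 (+ strand): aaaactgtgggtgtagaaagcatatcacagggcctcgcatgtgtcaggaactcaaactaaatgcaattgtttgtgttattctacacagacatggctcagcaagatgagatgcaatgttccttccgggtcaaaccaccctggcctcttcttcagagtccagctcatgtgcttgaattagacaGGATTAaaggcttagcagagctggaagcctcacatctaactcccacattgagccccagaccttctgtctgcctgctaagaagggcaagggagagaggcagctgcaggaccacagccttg
Gngt1, chr6:3993758-3994057 (+ strand): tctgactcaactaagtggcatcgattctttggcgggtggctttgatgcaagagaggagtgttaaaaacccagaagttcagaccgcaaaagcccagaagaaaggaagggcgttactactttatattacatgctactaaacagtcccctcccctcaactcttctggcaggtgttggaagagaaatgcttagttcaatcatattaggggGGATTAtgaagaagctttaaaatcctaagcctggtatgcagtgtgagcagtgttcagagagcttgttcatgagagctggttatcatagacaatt
Crx, chr7:15879906-15880205 (- strand): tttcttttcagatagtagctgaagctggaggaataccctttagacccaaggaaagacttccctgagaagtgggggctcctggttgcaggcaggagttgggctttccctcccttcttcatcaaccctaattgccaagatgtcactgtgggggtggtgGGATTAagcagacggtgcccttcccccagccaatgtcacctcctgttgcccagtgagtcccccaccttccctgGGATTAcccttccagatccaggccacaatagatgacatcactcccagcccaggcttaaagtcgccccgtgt
Tyrp1, chr4:80833963-80834262 (+ strand): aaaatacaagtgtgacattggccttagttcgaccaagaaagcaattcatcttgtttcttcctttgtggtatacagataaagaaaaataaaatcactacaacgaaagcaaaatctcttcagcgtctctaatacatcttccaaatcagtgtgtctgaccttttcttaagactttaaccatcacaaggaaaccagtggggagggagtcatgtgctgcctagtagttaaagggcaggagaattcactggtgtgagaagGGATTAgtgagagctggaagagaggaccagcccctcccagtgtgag
Per3, chr4:151044616-151044915 (- strand): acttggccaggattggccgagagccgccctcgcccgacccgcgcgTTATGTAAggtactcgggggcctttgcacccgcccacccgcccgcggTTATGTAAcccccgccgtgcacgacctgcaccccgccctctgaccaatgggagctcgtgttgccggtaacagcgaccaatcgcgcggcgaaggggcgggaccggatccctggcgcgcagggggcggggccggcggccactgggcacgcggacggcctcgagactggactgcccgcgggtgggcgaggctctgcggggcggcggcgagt

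The letters TAATCC were found in 7 of the 27 promoters (25.9%) of the retina, pigment and neural genes called lower that had a promoter in the table, in 14.7% of promoters of all genes called lower, in 6.25% of those of genes called higher and in 7.06% of all promoters in the table. Genes with a match were Crx, Dct, Gngt1, Kif5c, Otx2, Rbp3 and Tyrp1. In Crx there were 2 matches. 4 other motifs were searched on both strands: the D-box, the E-box CACGTG, the antioxidant response core TGACNNNGC and the grainyhead-like AACCNGTT. In the 23 promoters of the enzymes called higher they were in 4.35%, 4.35%, 8.7% and 8.7%, against 3.38%, 7.15%, 12.4% and 2.09% of all promoters. A match is a description of the sequence.

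Circadian clock genes were called in 5 of 17, with 4 higher (23.5%) and 1 lower (5.88%), against 0.868% and 0.557% of all genes. Per3, Bhlhe40, Dbp and Hlf rose and Nfil3 fell. Per3, a period gene of the negative clock arm, had levels of 9.05, 8.84 and 9.14 at P7, against 7.73, 7.68 and 7.35 at P3 (log2 change 1.42 ± 0.13 SE, adjusted p = 3.87e-07). Nfil3, which represses through the D-box, had levels of 8.01, 7.76 and 7.83 at P7, against 9.78, 9.37 and 9.65 at P3 (log2 change -1.73 ± 0.20 SE, adjusted p = 1.96e-05). The arrays of both ages were tight and did not overlap in either gene. Dbp and Hlf, activators that bind the D-box, rose by 1.08 and 1.05, and Bhlhe40, a repressor of the clock, by 1.29. Dbp lost its call without P7 replicate 3 or P3 replicate 3, at changes of 0.97 and 0.89, and Hlf without P7 replicate 2 or 3 or P3 replicate 2 or 3 (adjusted p of 0.0524 to 0.0745). The hour of collection is not in the labels, so age and hour cannot be told apart. The D-box occurred in 1 of 4 clock promoters in the table, that of Per3, with 2 matches.

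The later course differed between genes. P28 and P14 share no arrays with P7 and P3, but both contrasts come from 1 fit and use the same pooled spread of each gene. The 2 sets of calls are therefore not independent. Of the 173 genes higher at P7, 45 (26%) were called higher again at P28 against P14 and 17 (9.83%) lower. Over all genes 1.63% and 2.84%, and 4.47% in either direction, were called. Of the 111 genes lower at P7, none was called higher and 26 (23.4%) lower. Only 1 of the 29 retina, pigment and neural list members that fell was among those called lower again. Tmprss11e, at means of 5.92, 9.06, 8.84 and 12.03 at P3, P7, P14 and P28, rose again (adjusted p = 2.97e-09). Vwde, a von Willebrand factor domain gene, averaged 8.95, 11.19, 11.39 and 6.73 over these ages and had a log2 change of -4.66 at P28 against P14. Car3 averaged 8.99, 11.43, 10.57 and 9.15, but its P28 to P14 difference was not called (adjusted p = 0.11).

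Some of the genes that fell at P7 had a higher mean at P14. Pdc averaged 11.08, 8.45, 10.58 and 9.46 at P3, P7, P14 and P28, and Otx2 11.01, 6.85, 8.44 and 6.77. Dct averaged 10.95, 7.28, 8.77 and 8.21. The P14 to P7 difference was not tested. The photoreceptor list mean was 7.58 ± 0.11 at P7, against 8.12 ± 0.36 at P3, and 8.19 ± 0.56 at P14 (SD, n = 3 each).

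**Figure D5:**
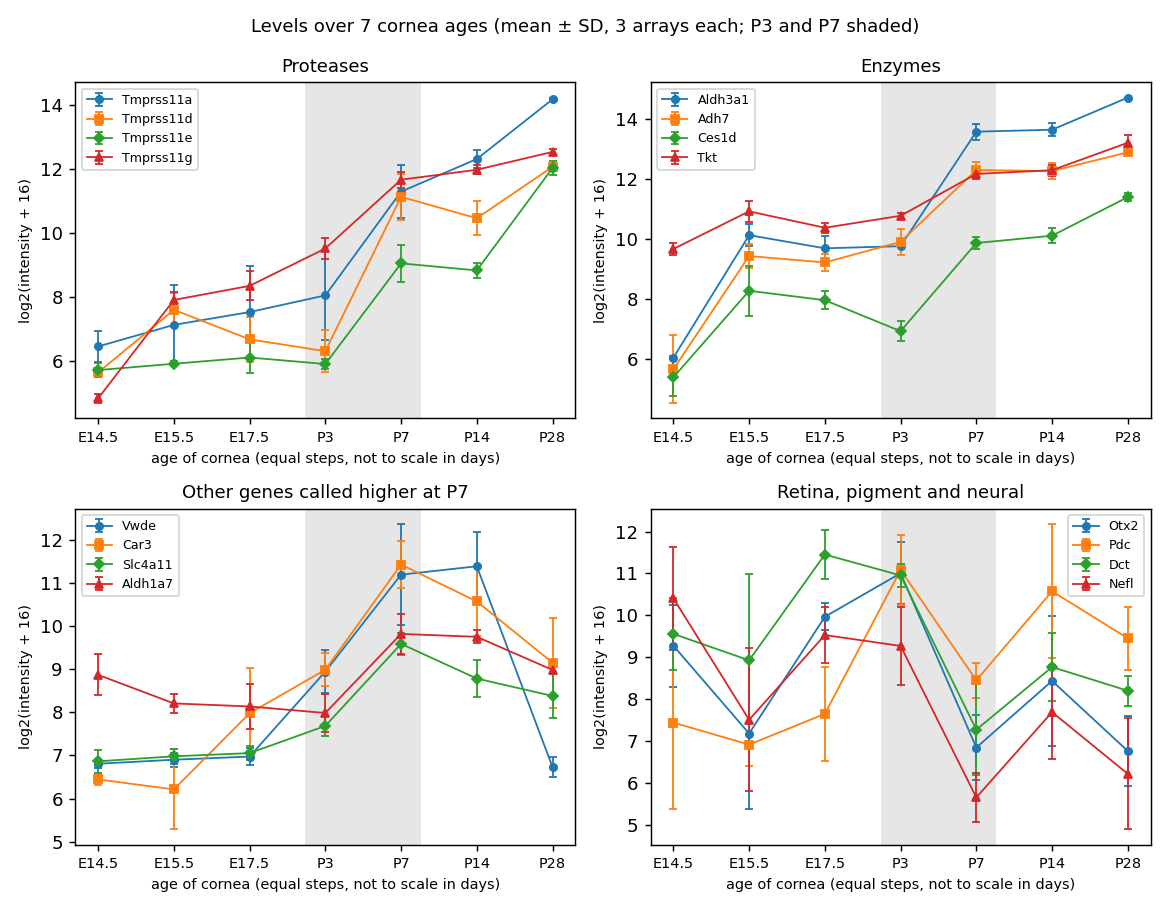
Mean level and SD of 16 genes over 7 cornea ages, 3 arrays each, as log2(intensity + 16); ages are equally spaced and P3 and P7 are shaded. The 4 proteases and 4 enzymes step up between P3 and P7 and have means above P3 at P14 and P28, Vwde is back below P3 at P28, and the retina, pigment and neural genes dip at P7.

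Other large rises were in genes of varied role. Lypd2, a Ly6-domain surface protein, had levels of 11.67, 12.43 and 12.16 at P7, against 8.58, 9.15 and 9.27 at P3 (8.47-fold, adjusted p = 4.19e-07). Gna14, a Gq-class G protein subunit, had levels of 9.40, 9.88 and 9.38 at P7, against 7.43, 7.33 and 7.49 at P3 (adjusted p = 2.66e-08). Its ages stood clear of each other with little spread in either. Spon2, a secreted matrix protein, Chst9, a sulfotransferase of glycans, Acpp, an acid phosphatase, and Mia, a small secreted protein, rose by 2.01, 1.99, 1.93 and 1.93. Psmb9, an immunoproteasome subunit, was the only one of 38 interferon and antigen presentation genes called (2.63%, against 0.868% of all genes higher), at 1.01 (adjusted p = 0.0101). It lost that call without P7 replicate 2 or 3 or P3 replicate 1 or 2, at changes of 0.84 to 1.00, and in the fit on the 6 arrays of the 2 ages alone.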

How the data were processed

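Intensities were deposited by the authors as linear values on Affymetrix Gene ST arrays, which the submitters' processing notes credit to Affymetrix Expression Console (version 1.1.1) and PLIER (version 2.0). Whether these included a normalisation between arrays was not given in the sources used here. From these deposited intensities, log2(intensity + 16) was quantile-normalised over 27 arrays, and the brightest of each gene's probe sets was kept. Of 35556 probe sets, 21789 have 1 gene in the GEO platform annotation, 1621 several and 12146 none; 99.58% of the first were found in the RefSeq table, leaving 19938 genes. limma 3.58.1 (R 4.3.3) was fitted with 9 groups, two-sided, with no further covariate, since the labels give no batch. A gene was called at a Benjamini-Hochberg adjusted p under 0.05 and at least 2-fold. On simulated data with 19938 genes, 50% of 50 2-fold, 96% of 3-fold, 98% of 4-fold and 100% of 8-fold changes were called. There was 1 false call among unchanged genes. The 2-fold limit itself keeps the share near 50% for true 2-fold changes. The simulated noise was independent, with the same spread in every group, whereas Crx had an SD of 0.024 at P7 and 1.204 at P3. The rate of false calls in the real data was therefore not measured. The precision is limited by the 3 arrays per age.

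Genes named have an official symbol: the 20 largest rises and falls among called genes whose ages do not overlap, all called proteases, inhibitors and enzymes (Pygl among them, whose ages overlap), up to 8 called genes of each other list, the largest change of a list without calls, and a few marker genes. Members and lists were chosen with earlier results of these data known. Same-numbered replicates' deviations correlated at -0.147, -0.183 and -0.2, so numbers do not pair the arrays. Alternatives were deposited values, other pseudocounts, low-level filter, mean of probe sets, another variance model, other samples, fold limits, block, and arrays left out.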

Additional observations from a re-analysis of the deposited data

How the results depend on the processing

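The 284 calls (173 higher, 111 lower) became 1437 (924 and 513) with no fold limit and 853 (561 and 292) at 1.5-fold, with 53 and 47 enzymes higher. On the 6 arrays alone 108 were higher and 95 lower. With P7 replicate 2 and P3 replicate 3 both left out there were 158 calls (109 and 49), with 3 proteases and 15 enzymes higher and 10 retina, pigment and neural genes lower. Leaving out 1 array in turn gave 221 to 322 calls, 131 to 204 higher, 77 to 132 lower, 3 to 7 proteases, 16 to 26 enzymes and 16 to 30 retina, pigment and neural genes lower. With the replicate block on the 6 arrays, whose numbers do not pair the samples, 149 genes were called, 70 higher, 3 of them proteases. Genes without a call reversed in sign: without P7 replicate 2, or with both arrays left out, Kdm5d was -0.42 or -0.3, Uty -0.04 or -0.11 and Eif2s3y -0.99 or -0.7, Rpe65 was -0.06 without P3 replicate 1, and Acta1 was 0.09 without P3 replicate 3 and 0.07 with both left out. The other ends of their ranges with 1 array left out were 2.39, 1.99, 2.16, 0.19 and -0.4. For the Y-linked genes, leaving out the single array with their signal turned the sign; the cause of the others was not tested. Among 121 named genes, 12 to 31 lost their call when 1 array was left out, the most without P7 replicate 2. No called gene changed sign in any of these settings, and none was called in the opposite direction. For genes whose ages do not overlap, leaving out arrays could hardly have turned the sign. Other fold limits leave the change itself as it is, so the kept signs are no separate support. The deposited values without quantile normalisation gave 141 higher and 99 lower. The number of arrays limits the precision, and background signal was not given with the table.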

Other observations

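Of the called genes, 125 of 173 higher and 71 of 111 lower are in none of the lists above, and the genes in this paragraph and the next were chosen after their values were seen. Foxc2, a forkhead factor of vessels and the anterior eye, had levels of 6.47, 6.17 and 5.97 at P7, against 9.18, 7.95 and 8.21 at P3 (adjusted p = 0.0125). Aplnr, the apelin receptor, fell by 2.01 (adjusted p = 0.0168). Angpt1, which stabilises vessels, fell by 2.06 and Angpt2, its counterpart, rose by 1.56 on the log2 scale (adjusted p = 0.0395 and 0.000107). Igf2, the imprinted fetal growth factor, had levels of 9.57, 9.65 and 10.02 at P7, against 12.14, 11.17 and 11.38 at P3 (adjusted p = 0.000662). Plagl1, an imprinted zinc-finger factor, fell by 1.24 (adjusted p = 0.0395), and both were called lower again at P28 against P14, with log2 changes of -2.39 and -2.79.

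Il18, an epithelial cytokine, had levels of 8.33, 8.55 and 8.31 at P7, against 7.14, 7.31 and 6.83 at P3 (adjusted p = 4.43e-05), and Myd88, an adaptor of its receptor, rose by 1.23 (adjusted p = 0.00501). Il18r1, that receptor's chain, rose by 1.64 and had a log2 change of -1.80 at P28 against P14. Slc14a1, a urea transporter, had levels of 10.87, 11.01 and 10.36 at P7, against 8.74, 9.38 and 9.25 at P3 (adjusted p = 0.00837), and Cldn10, a claudin, rose by 1.49 (adjusted p = 0.0238). Both were called lower at P28 than at P14. Cftr, the epithelial chloride channel, rose by 1.22 (adjusted p = 0.0144).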
